A study of Bos taurus with 43 samples.

Results

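Protein phosphatase 2A (PP2A) is a serine/threonine phosphatase built from a catalytic C subunit, a scaffold A subunit and an exchangeable regulatory B subunit. The genes PPP2CA and PPP2CB encode the alpha and beta forms of the catalytic subunit, and PPP2R1A and PPP2R1B the alpha and beta forms of the scaffold. The catalytic subunit removes the phosphate, the scaffold holds the enzyme together and the B subunit directs it to its substrates. In muscle, PP2A is known to act on signalling through insulin and on ion channels and contractile proteins, and it also takes part in the Wnt pathway, where it acts on the complex that controls beta-catenin.

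The members were the probes named for these 4 genes on a bovine oligonucleotide array with 21475 gene probes. Each gene had 1 probe, printed as 2 spots. These were A_73_109719 for PPP2CA, A_73_118411 for PPP2CB, A_73_106939 for PPP2R1A and A_73_118107 for PPP2R1B. PPP2R1B was named only by the array's own description. The 4 probes were well above background on all 43 arrays, were saturated on 0 of them and passed the filter on dim probes, as did 16360 probes in all. The 2 spots of a probe differed by a median of 0.06 (log2) for PPP2CA, 0.07 for PPP2CB, 0.06 for PPP2R1A and 0.08 for PPP2R1B.

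RNA came from the biceps brachii, a muscle of the forelimb, of 43 male cattle, with 1 animal per single-colour array. Commercial animals S21, S54, S56 and S57 are labelled as suspected of corticosteroid treatment, and are called positive here after their thymus histology and the dexamethasone residues in their urine. Another 21 commercial animals had an unknown treatment status. They were divided in the study, by eye on a principal component analysis of these same arrays, into set B, which lay with the positive animals, and set A, which lay with untreated cross-breeds. Set B held 10 animals and set A 11. Commercial animals were 12 to 24 months old and mostly Charolais, Limousine or their cross, and their dose, drug and time of treatment were not known. The untreated controls, from earlier experiments, were 5 Charolais x Limousine cross-breeds of 18 months (K, the crossbred controls) and 13 Holstein animals (C) of 13 to 18 months. Each sample was whole muscle, in which a lower share of a cell type and less RNA per cell cannot be told apart.

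The arrays lay on 19 slides, scanned on 13 days. The crossbred controls were on slides 1 to 4 and scanners 1 and 2, and their signals were extracted with other versions of the scanner software (9.1.3.1 on 2 arrays and 9.5.3.1 on 3) than those of all other arrays (9.5.1.1). No other group lay on their slides or was scanned on their days or scanners, so that batch and group cannot be told apart in any comparison with them. The Holstein controls (slides 13 to 19) shared a scanner with the commercial animals, but no slide or scan day. Set A was on slides 5 to 7 and set B on slides 8 to 12, and batch and set cannot be told apart either. Only slides 9 and 10 held 2 groups, with S56 and S57 beside animals 50 and 81 and with S21 and S54 beside animals 78 and 79. The share of spots well above background was lowest on the array of animal 79 (40.2%) and highest on that of animal 50 (97.3%).

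Several arrays stood apart in genes that do not belong to PP2A. HOXA9, a gene of position along the body axis, had log2 signals (probe A_73_116160) between 1.79 and 3.14 in positive animals, between 9.88 and 10.88 in crossbred controls and between 9.50 and 10.60 in Holstein controls. It was at 10.16 to 10.94 in 5 animals of set A (263, 265, 266, 269 and 270) and at 1.41 to 6.23 in the other 16 unknown animals. HOXC6 ran the other way, with 10.23 to 10.49 in the positive animals and 3.19 to 5.90 in both control groups. The Y-linked gene ZFY was at 2.84 to 4.53 in the 11 animals of set A and at 5.47 or above in all other animals, although the study describes all animals as male. Spike-in RNAs are added in a fixed amount to each labelling. Averaged over the 7 brightest of them, the raw log2 signal was between 7.36 and 8.85 in 5 animals of set B (29, 39, 52, 61 and 76) and at least 11.42 in all other animals.

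PPP2CA varied most among the 4 genes. The SD of its normalized log2 signal over the 43 animals was 0.74, against 0.41 for PPP2CB, 0.21 for PPP2R1A and 0.29 for PPP2R1B. The median SD of all 16360 probes was 0.62. Only 1.1% of these probes had an SD at or below that of PPP2R1A, and 5.98% one at or below that of PPP2R1B.

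**Figure D1:**
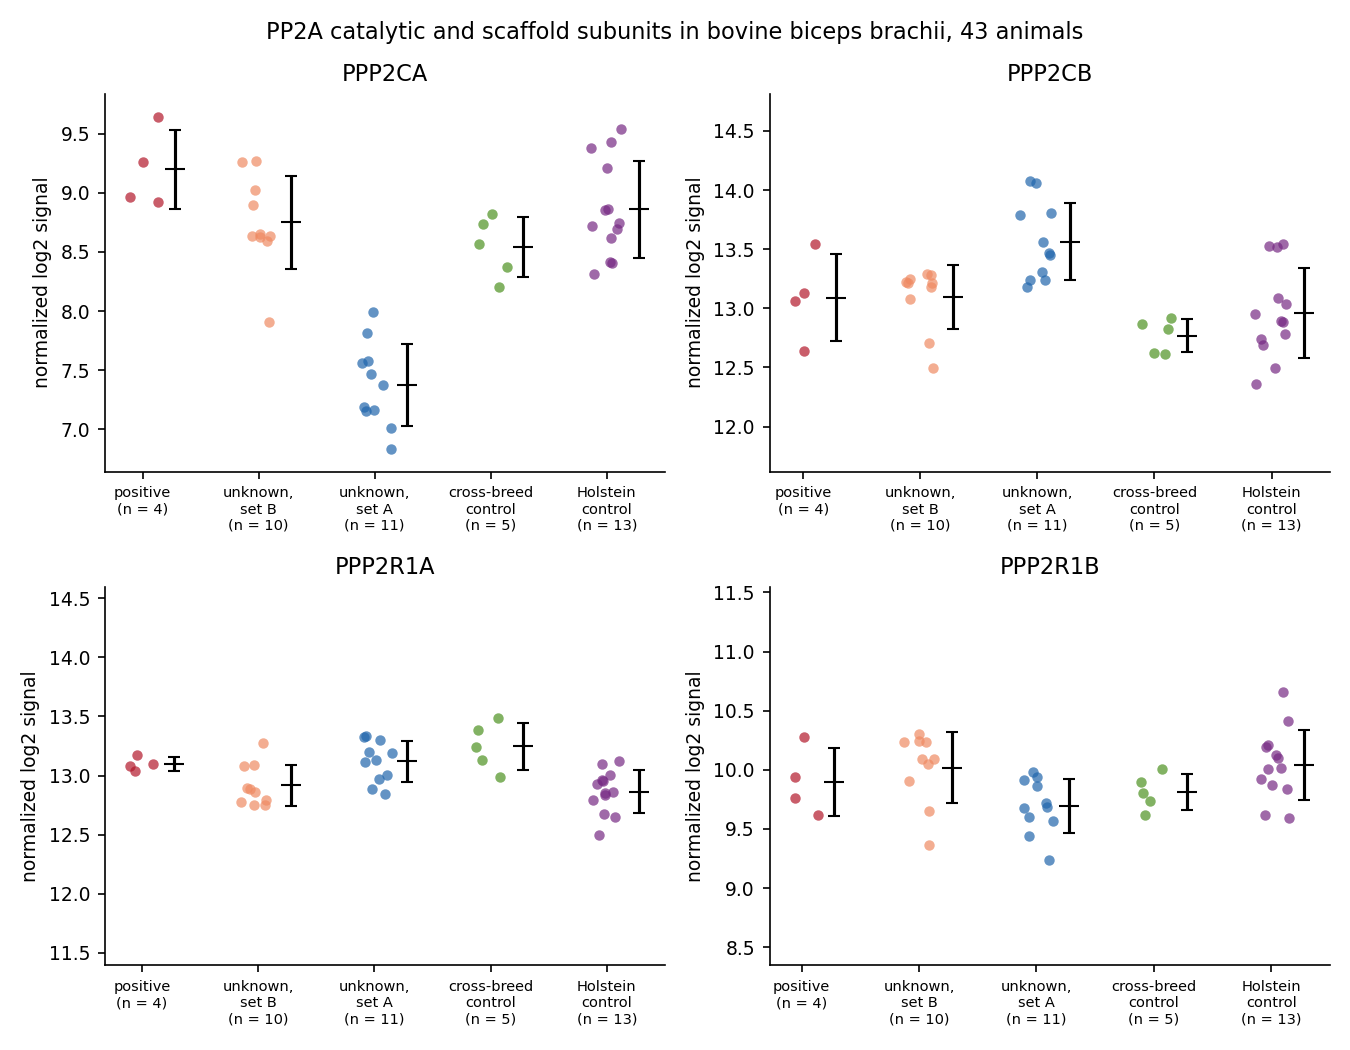
Normalized log2 signal of the 4 PP2A genes, 1 point per animal, in the positive animals, both sets of unknown animals and both control groups; the horizontal mark and bars give the mean and SD, and all panels span the same range of 3.2 log2 units. The 11 animals of set A lay between 6.84 and 8.0 for PPP2CA, with animal 81 of set B (7.91) among them and all others above, while the PPP2R1A values of all animals lay between 12.5 and 13.49.

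In the positive animals, PPP2CA had a log2 signal of 9.26 in S21, 9.64 in S54, 8.96 in S56 and 8.93 in S57. In the crossbred controls it was 8.20 in K7, 8.82 in K8, 8.74 in K10, 8.57 in K11 and 8.37 in K12. The 13 Holstein controls ranged from 8.32 (C18) to 9.54 (C23), with a median of 8.75. Every positive animal therefore lay above every crossbred control, and 3 of them lay within the range of the Holstein controls. Among the unknown animals, set B ran from 7.91 (animal 81) to 9.27 (animal 39) with a median of 8.65, and set A from 6.84 (animal 270) to 8.0 (animal 37) with a median of 7.37. All 11 animals of set A lay below all 22 positive and control animals, and the 2 sets overlapped only through animals 37 and 81. The untreated crossbred controls, which the study had placed with set A, were thus not low for this gene.

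Ordered by group mean, PPP2CA was at 9.20 ± 0.33 (SD, n = 4) in the positive animals, 8.86 ± 0.41 (n = 13) in the Holstein controls, 8.75 ± 0.40 (n = 10) in set B, 8.54 ± 0.26 (n = 5) in the crossbred controls and 7.38 ± 0.35 (n = 11) in set A. Neighbours in this order differed by less than the larger of their SDs, except that the crossbred controls and set A were 1.16 apart. Set B was higher than set A by 1.37 on the log2 scale (2.59-fold). This difference, like those of the other PP2A genes between the sets, is a description without a test, because the sets were drawn from these arrays. The study had named PPP2CA and PPP2R1A as up-regulated in a wider contrast of the same arrays, in which set B was joined by the positive animals and set A by the untreated cross-breeds. It had picked them among genes also up-regulated in dexamethasone-treated bulls of an earlier experiment, which is not part of these data. Of all probes, 14.5% were at least 2-fold higher and 11.3% at least 2-fold lower in set B, so that differences of 2-fold or more were common. By animal, set A held PPP2CA values of 7.19 (51), 7.46 (49), 7.56 (38) and 8.0 (37) on slide 5, 7.01 (269), 7.15 (58) and 7.57 (36) on slide 6, and 6.84 (270), 7.16 (266), 7.37 (263) and 7.81 (265) on slide 7. In set B the values were 8.60 (76) on slide 8, 7.91 (81) and 8.64 (50) on slide 9, 8.63 (78) and 8.90 (79) on slide 10, 8.66 (60), 9.02 (52) and 9.26 (61) on slide 11, and 8.63 (29) and 9.27 (39) on slide 12. The 3 slides of set A were alike, and animal 81 was the lowest of set B by a wide gap. For animal 79 the 2 spots of PPP2CA differed by 0.49, more than on any other array. The difference between the sets was 1.17 without the 5 animals with low spike-in signal, 1.26 without the 5 with high HOXA9 and 1.36 without animal 79, and it was 0.79 with normexp background correction.

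**Figure D2:**
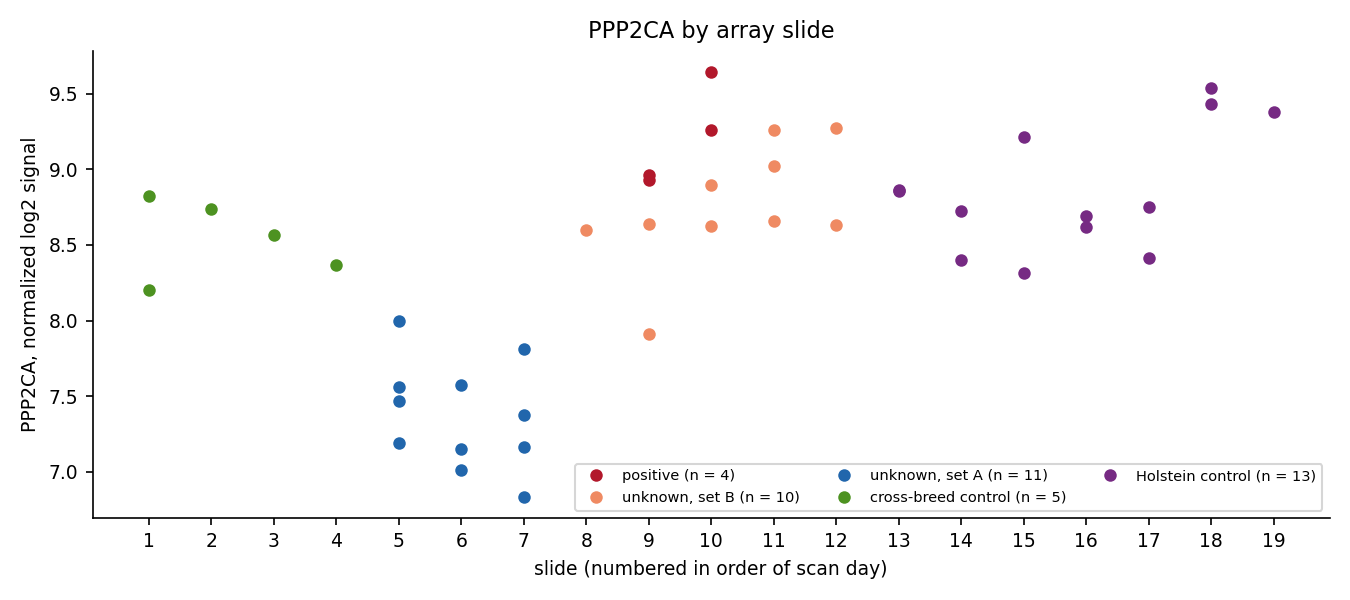
Normalized log2 signal of PPP2CA, 1 point per animal, by the slide its array lay on, coloured by group. Slides 5 to 7, which held set A alone, carried values of 8.0 or less, and on slides 9 and 10 the positive animals lay above the unknown animals beside them.

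Between the positive animals and the crossbred controls, PPP2CA was higher by 0.66 (standard error 0.20, 95% interval 0.22 to 1.09, limma adjusted p = 0.0173), or 1.58-fold. In this comparison, 25.5% of the 16360 probes passed as higher and 26.3% as lower, and 21.7% had every positive animal above every crossbred control (21.6% every one below), so that the change of PPP2CA was of a common kind. With cyclic loess fitted on every pair of arrays, its sign turned (log2 change -0.12, adjusted p = 0.672) while the median of all probes moved from -0.03 to -0.26. The change was 0.51 without S54 (adjusted p = 0.0525), 0.65 with a random block for scan day (adjusted p = 0.0616), 0.38 with normexp background correction (adjusted p = 0.0967) and 0.66 in a fit of all 43 arrays (adjusted p = 0.224).

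PPP2CA did not pass between the Holstein and the crossbred controls (log2 change 0.32, 95% interval -0.09 to 0.73, adjusted p = 0.186), where 48.3% of probes passed. Nor did it pass between the positive animals and the Holstein controls (0.34, -0.13 to 0.80, adjusted p = 0.247; -0.39 with cyclic loess on every pair, adjusted p = 0.118), where 36.3% of probes passed. Within the Holstein controls, the 3 animals of slides 18 and 19 were at 9.38 to 9.54 and the other 10 at 8.32 to 9.21. Both comparisons share animals with the first and are not independent of it. Against the 21 unknown animals it was higher by 1.17 (0.35 to 1.98), with an adjusted p of 0.116, and it passed in the fit of all 43 arrays (1.17, adjusted p = 0.0318). It was 1.46 (adjusted p = 0.0595) without the 5 animals with low spike-in signal and 0.92 (adjusted p = 0.225) without the 5 with high HOXA9. In that comparison 0.0489% of probes passed, 8 in all and 0 of them higher in the positive animals, while 1953 were higher at an unadjusted p under 0.05 (limma). On slide 9 the mean of both positive animals was 0.67 above that of both unknown animals, and on slide 10 it was 0.69 above. A fit on these 8 arrays with slide as a term gave 0.68 (adjusted p = 0.287).

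**Figure D3:**
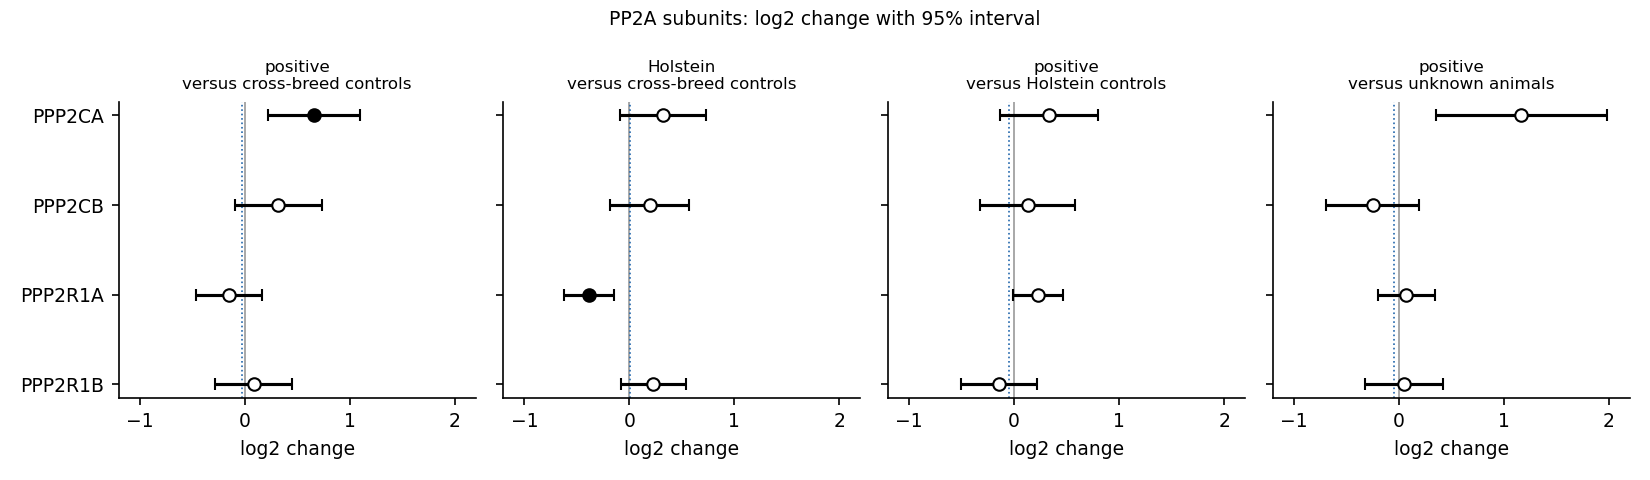
Log2 change of each PP2A gene in the 4 comparisons, with its 95% interval; filled points have an adjusted p under 0.05, and the dotted line is the median change of all probes. Only PPP2CA in the positive animals against the crossbred controls (0.66) and PPP2R1A in the Holstein against the crossbred controls (-0.38) are filled.

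PPP2CB, the gene of the beta catalytic subunit, had a log2 signal of 13.06 in S21, 13.54 in S54, 13.13 in S56 and 12.63 in S57. The crossbred controls were at 12.62 in K7, 12.92 in K8, 12.86 in K10, 12.62 in K11 and 12.83 in K12. S57 lay among these controls and the other 3 positive animals above them. The Holstein controls ran from 12.36 to 13.54 (median 12.89), set B from 12.50 to 13.29 (median 13.21) and set A from 13.18 to 14.07 (median 13.47). Set A was thus the highest group for PPP2CB and the lowest for PPP2CA. The mean of set A, 13.56 ± 0.33 (SD, n = 11), lay 0.47 above that of set B, more than the larger SD of the 2 sets, and no other neighbours in the order of groups differed by that much. Within set A, the 4 animals of slide 5 (37, 38, 49 and 51) were at 13.79 to 14.07 and the 7 animals of slides 6 and 7 at 13.18 to 13.56, without overlap between the 2 scan days. PPP2CB did not pass in any of the 4 comparisons. Its log2 change was 0.32 (95% interval -0.09 to 0.73, adjusted p = 0.171) in the positive animals against the crossbred controls, and it passed there with 75th percentile scaling (0.49, adjusted p = 0.0462), with cyclic loess on every pair (0.78, adjusted p = 0.00614) and without S57 (0.47, adjusted p = 0.0476). It was 0.19 (-0.18 to 0.57) in the Holstein against the crossbred controls, 0.13 (-0.32 to 0.58) in the positive animals against the Holstein controls and -0.25 (-0.69 to 0.19) against the unknown animals. Over the alternatives, the change against the Holstein controls ran from -0.022 to 0.59, and it passed at 0.59, with cyclic loess on every pair. The change against the unknown animals ran from -0.40 to 0.10.

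PPP2R1A, the gene of the alpha scaffold, had a log2 signal of 13.10 in S21, 13.08 in S54, 13.17 in S56 and 13.03 in S57. The crossbred controls were at 13.24 in K7, 13.13 in K8, 12.99 in K10, 13.49 in K11 and 13.38 in K12, and the Holstein controls ran from 12.5 to 13.12 with a median of 12.86. The positive animals lay inside the range of the crossbred controls, and most Holstein controls lay below it. PPP2R1A was lower by 0.38 in the Holstein than in the crossbred controls (1.30-fold; standard error 0.11, 95% interval -0.62 to -0.14, limma adjusted p = 0.00994), a direction in which 24.4% of all probes passed. With 75th percentile scaling it was -0.25 (adjusted p = 0.131) while the median of all probes moved to -0.11. The change was -0.15 (-0.46 to 0.17) in the positive animals against the crossbred controls, 0.23 (-0.01 to 0.47) against the Holstein controls and 0.07 (-0.19 to 0.34) against the unknown animals, and did not pass in these 3 comparisons. Against the Holstein controls it passed with normexp background correction (0.44, adjusted p = 0.00504) and with cyclic loess on every pair (0.70, adjusted p = 1.94e-04). In the unknown animals, set B ran from 12.75 to 13.27 (mean 12.92 ± 0.18, SD, n = 10) and set A from 12.84 to 13.34 (13.12 ± 0.17, n = 11). The mean of set B thus lay below that of set A. The study reported PPP2R1A as up-regulated in its wider contrast, with its own normalization and threshold. In the order of group means, the positive animals lay 0.180 above set B, slightly more than the larger SD of these groups (0.175). No other neighbours differed by more than the larger SD. As for PPP2CB, slide 5 stood apart within set A, but here it was the lower, at 12.84 to 13.01 against 13.11 to 13.34 on slides 6 and 7.

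PPP2R1B, the gene of the beta scaffold, had a log2 signal of 9.76 in S21, 9.94 in S54, 10.28 in S56 and 9.62 in S57. The crossbred controls were at 9.90 in K7, 10.01 in K8, 9.80 in K10, 9.73 in K11 and 9.62 in K12. The Holstein controls ran from 9.59 to 10.65 (median 10.01), set B from 9.37 to 10.30 (median 10.09) and set A from 9.24 to 9.98 (median 9.68). All groups overlapped, and no neighbours in the order of group means differed by more than the larger SD. Its log2 change was 0.09 (95% interval -0.28 to 0.45) in the positive animals against the crossbred controls, 0.23 (-0.08 to 0.54) in the Holstein against the crossbred controls, -0.14 (-0.51 to 0.22) in the positive animals against the Holstein controls and 0.05 (-0.32 to 0.42) against the unknown animals. Set B lay above set A by 0.32, and 2 animals of set B (29 and 39, on slide 12) were at 9.37 and 9.65, below its other 8 animals. It passed in none of the 4 comparisons, with adjusted p of 0.207 to 0.873. With cyclic loess on every pair it passed as lower in the positive animals, at -0.43 (adjusted p = 0.0433) against the crossbred controls and -0.48 (adjusted p = 0.0319) against the Holstein controls.

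Across the 43 animals, the 4 genes were only loosely related to each other. As a description over arrays that share normalization, slides and scan days, Pearson's r was 0.42 between PPP2CA and PPP2R1B, 0.23 between PPP2CB and PPP2R1A, -0.28 between PPP2CA and PPP2CB, -0.26 between PPP2CA and PPP2R1A, -0.20 between the 2 scaffolds and -0.032 between PPP2CB and PPP2R1B. After removing the means of the 4 labelled groups, it was 0.38, 0.34, -0.062, -0.28, -0.070 and 0.054 for these pairs in the same order. Sets A and B share the unknown label, so the gap between them stays in these values.

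The probe most like PPP2CA was that of MYOZ2 (A_73_101508), which encodes myozenin 2, a protein of the sarcomere's Z-disc that binds the phosphatase calcineurin and is typical of slow fibres. The log2 signal of MYOZ2 lay between 14.80 and 15.42 in positive animals, 14.32 and 16.01 in set B, 11.58 and 13.54 in set A, 14.21 and 14.55 in crossbred controls, and 13.56 and 15.77 in Holstein controls. Set A was again the lowest group, here without overlap with the others. Pearson's r between PPP2CA and MYOZ2 was 0.93 over 43 animals (Spearman's rho 0.90), 0.92 after removing the means of the 4 labelled groups and 0.91 without the 2 animals farthest from the median of PPP2CA. It was 0.83 in the 13 Holstein controls, 0.68 in the 11 animals of set A and 0.76 in the 10 animals of set B. The next 4 genes were SNX24 (a sorting nexin, r = 0.90), TCEAL4 (0.90), POLR1E (a subunit of RNA polymerase I, 0.90) and ABRAXAS1 (a scaffold of a BRCA1 complex, 0.90). Within the Holstein controls r was 0.48 for SNX24, 0.49 for TCEAL4, 0.48 for POLR1E and 0.74 for ABRAXAS1. Within set A and set B it was 0.85 and 0.88 for SNX24, 0.93 and 0.50 for TCEAL4, 0.57 and 0.78 for POLR1E, and 0.46 and 0.65 for ABRAXAS1. The values over 43 animals also hold the gap between set A and the rest. Removing the means of the labelled groups leaves in the gap between set A and set B.

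**Figure D4:**
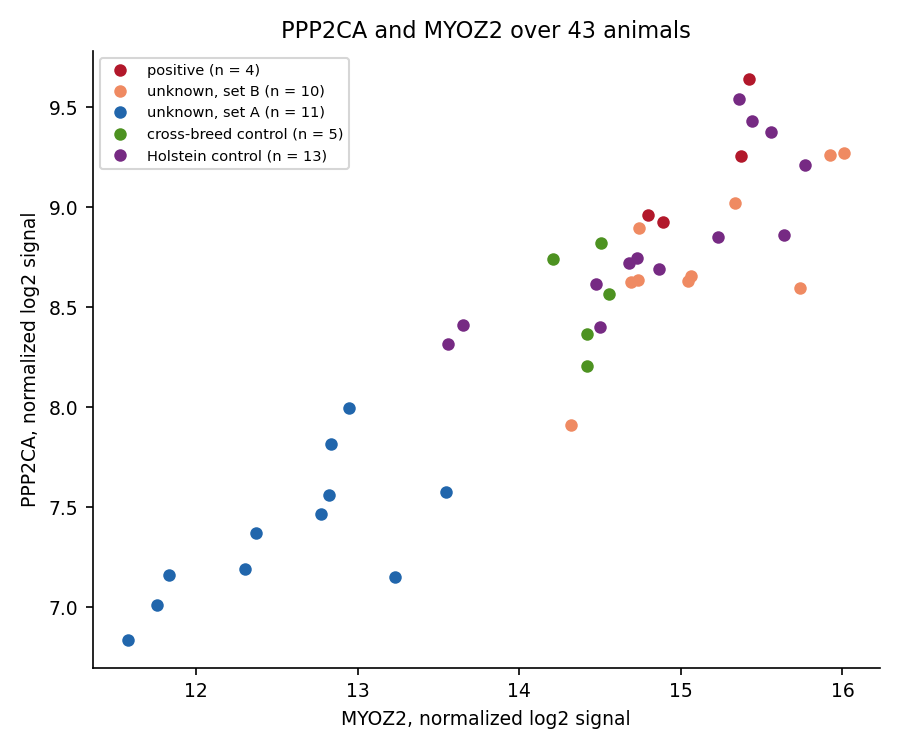
Normalized log2 signal of PPP2CA against MYOZ2, 1 point per animal, coloured by group. The 11 animals of set A form the lower left, and the points of the Holstein controls also rise together (r = 0.83).

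The other genes followed other partners. PPP2CB was most like NGRN (r = 0.81) and ACSL1 (0.77), which activates long-chain fatty acids, followed by KHDC4, CHMP5 and SUPV3L1 (0.77 to 0.74). PPP2R1A was most like TMEM63B (0.70), RBCK1, ILF2, TAF6 and SNRNP70 (0.65), and PPP2R1B most like ZCCHC3 (0.75), PAN3, KREMEN2, MAT2A and CYFIP2 (0.69). After removing the means of the labelled groups, the r of PPP2R1A with its 5 genes was 0.54 or less.

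Since muscle fibre types differ in contractile genes, PPP2CA was set beside 11 probes of 9 muscle fibre genes. The slow troponin T gene TNNT1 had an r of 0.83 with PPP2CA over 43 animals and 0.72 in the Holstein controls, but 0.24 within set A and -0.32 within set B. The slow myosin gene MYH7 had an r of 0.69 over 43 animals and -0.23 in the Holstein controls, and the fast troponin T gene TNNT3 had -0.54 and -0.19, with -0.51 within set A and -0.62 within set B. The other fast gene, MYH1, had -0.11 and -0.040 over 43 animals at its 2 probes. At these probes r was -0.34 and -0.54 in the Holstein controls, -0.31 and -0.20 within set A, and -0.53 and -0.57 within set B. Over the same animals r was 0.74 for the actin gene ACTA1, 0.65 for the myoglobin gene MB, -0.19 for the creatine kinase gene CKM, -0.0076 for the desmin gene DES and -0.28 and 0.31 at the 2 probes of the titin gene TTN. In the Holstein controls alone r was -0.43 for ACTA1, -0.49 for MB, 0.55 for CKM and 0.38 for DES. It was -0.70 and -0.81 there at the probes of TTN, in the same order. In set B against set A, 5 of the 11 probes were at least 2-fold higher and 2 at least 2-fold lower, beside 14.5% and 11.3% of all probes. TNNT1 was 2.37 higher on the log2 scale and TNNT3 lower by a log2 difference of -2.54. Between positive and crossbred animals all 11 probes passed, 5 of them higher (such as TNNT1, 1.10, and MYH7, 0.97) and 6 lower (such as TNNT3, -2.72, and a probe of the fast myosin MYH1, -7.33), beside 51.7% of all probes. With cyclic loess on every pair, where 9331 of 15859 probes passed over all, 0 were higher and 7 lower. TNNT1 was then at -0.046 and MYH7 at -0.37, while TNNT3 and MYH1 stayed lower. Their part in the values of PPP2CA was not tested. All 11 probes were well above background on all 43 arrays, as the labelled tissue has them.

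Markers of other cells also moved between positive and crossbred animals. Of 5 adipocyte marker probes tested, 4 were higher in the positive animals, beside 25.5% of all probes. FABP4 was higher by 5.23 (log2; 3.38 to 5.19 over other scalings), with a probe well above background on only 3 of 5 crossbred controls. The mean log2 signal of the 6 adipocyte probes lay between 7.41 and 8.19 in positive animals, 4.79 and 5.97 in crossbred controls, and 6.28 and 9.09 in Holstein controls. ADIPOQ, which defines adipocytes, was not well above background in any crossbred control. Of 5 endothelial probes 4 were higher (VWF by 1.54), and the mean signal of the list was 9.95 to 10.73 against 8.82 to 9.86. Of 7 fibroblast probes 3 were lower (COL1A1, -2.36) and 1 was higher (DCN, 1.63 at probe A_73_111861). The other DCN probe (A_73_104758) had a mean of 11.62 against 11.37 and did not pass. Of 5 leukocyte probes 1 was higher (CD79A, which did not pass in 3 of 5 other scalings), and of 2 erythroid probes both were. For each of these lists the shares of all probes were 25.5% higher and 26.3% lower. With cyclic loess on every pair, 9331 of 15859 probes passed, against 8461 of 16360 in the normalization used here. There the endothelial list had 2 higher and 1 lower, and the fibroblast list 0 and 2. The leukocyte list had 0 and 2 and the erythroid list 1 and 1, with HBB at -1.10. The adipocyte list had 4 higher and 0 lower, but not the same 4 probes, since ADIPOQ did not pass there. Between Holstein and crossbred controls, where PPP2R1A was lower, all 5 adipocyte probes and 6 of 7 fibroblast probes were higher, beside 23.9% of all probes. Between the positive animals and the Holstein controls, 6 of 7 fibroblast probes were lower (COL3A1, -3.29) and 4 of 5 endothelial probes higher (VWF, 2.36), beside 18.7% and 17.5% of all probes, and 1 of 5 adipocyte probes was higher. Between set B and set A, 2 of 5 adipocyte probes were at least 2-fold higher (CIDEC, 1.57), as were 2 of 5 endothelial probes (VWF, 1.46), 1 leukocyte probe and 1 erythroid probe, and 1 endothelial probe (PECAM1, -1.16) was at least 2-fold lower, beside 14.5% and 11.3% of all probes. The mean signal of the adipocyte list ran from 7.22 to 10.31 in set B and from 6.39 to 8.03 in set A. Their part in the values of the PP2A genes was not tested.

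Among the regulatory B subunits, which give PP2A its targets, 12 probes of 11 genes were tested. In the positive animals against the crossbred controls 1 was higher and 3 were lower, beside 25.5% and 26.3% of all probes, with a median log2 change of 0.07 (-0.19 with quantile normalization) against -0.03 for all probes. PPP2R2C, of the B55 family, was at 10.24 ± 0.22 (SD, n = 4) against 8.57 ± 0.67 (n = 5), higher by 1.67 (3.19-fold, adjusted p = 0.00135). Its probe was named only by the array's own description. PPP2R5A, of the B56 family, was at 11.73 ± 0.37 against 12.87 ± 0.44, lower by 2.21-fold (log2 change -1.14, adjusted p = 0.00385; -0.60 and not passed with cyclic loess on every pair). The striatins, which link PP2A to kinases, were lower at 2 probes, STRN3 (-1.73, not passed with normexp, and from -3.37 to -0.28 over 5 other scalings, with a probe well above background on 1 of 4 positive animals and 4 of 5 controls) and STRN (-0.62, but 0.09 with 75th percentile scaling). Against the Holstein controls, 3 of 12 were higher and 4 lower in the positive animals, beside 17.5% and 18.7% of all probes. PPP2R2C was again higher (log2 change 2.06, adjusted p = 1.38e-05), and STRN3 (-2.13, and -3.80 to -0.31 over other scalings), PPP2R5A (-1.0, and -0.53 at its smallest over other scalings), PPP2R3C (-0.93, not passed with normexp) and PPP2R5E (-0.36, not passed with 75th percentile scaling) were lower. The median of the list in this comparison was -0.31, and 0.39 with 75th percentile scaling. Between the control groups, 2 were higher in the Holstein animals (PPP2R3C, 1.29, and PPP2R5E, 0.61) and 2 were lower, beside 23.9% and 24.4% of all probes. The lower ones were the 2 probes of PPP2R5C, with -0.79 at A_73_103087 and a smaller change at A_73_115921. In set B against set A, 0 of 12 were at least 2-fold higher and 1 at least 2-fold lower, STRN3 (-1.92, well above background on 5 of 10 and 10 of 11 arrays), beside 14.5% and 11.3% of all probes. PPP2R2A, of the B55 family, was at 12.74 ± 0.17 (SD, n = 10) in set B and 13.60 ± 0.17 (n = 11) in set A. Against the unknown animals 0 of 12 passed, beside 0.0489% of all probes (1 with cyclic loess on every pair, where 140 of all probes passed).

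**Figure D5:**
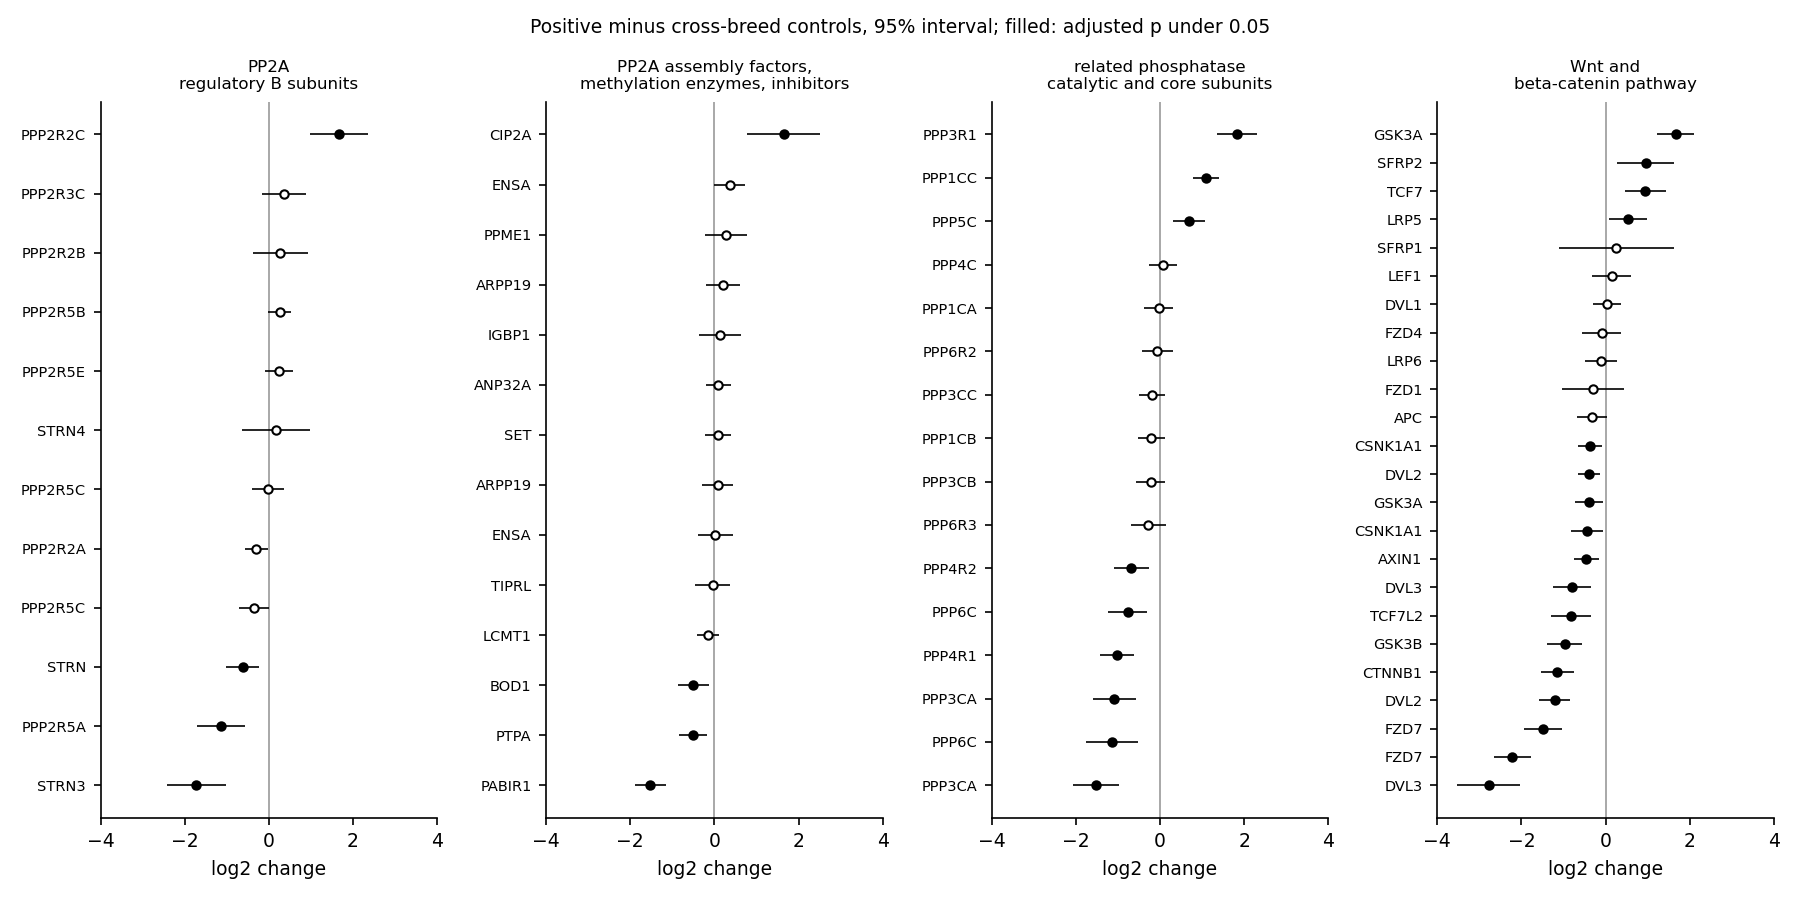
Log2 change with 95% interval of each tested probe in 4 lists of related genes, positive animals minus crossbred controls; a gene with 2 probes appears 2 times, and filled points have an adjusted p under 0.05. The list of PP2A regulatory subunits had 1 filled point above 0 and 3 below, and the Wnt list 4 and 13.

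Of 14 probes of the factors that assemble, methylate or inhibit PP2A, 1 was higher and 3 were lower in the positive animals than in the crossbred controls (median 0.08), beside 25.5% and 26.3% of all probes. The number that passed ran from 2 to 5 of 14 over the other scalings, while 6495 to 9331 of all probes passed. CIP2A, an inhibitor of PP2A, was higher by 1.64 (adjusted p = 0.00584), but its probe was well above background on only 2 of 5 crossbred controls and its change was -0.48 with cyclic loess on every pair. PABIR1, an inhibitor of the B55 form, was lower by a log2 change of -1.52 (adjusted p = 5.15e-05), the activator PTPA by -0.51 and BOD1, an inhibitor of the B56 form, by -0.50. The probe of PABIR1 was dim, at a mean of 4.55 in the positive animals and 5.06 in the Holstein controls. It was well above background on 3 of 4 positive animals, 10 of 13 Holstein and 5 of 5 crossbred controls. Its change in the positive animals against the crossbred controls ran from -3.52 to -0.55 over the other scalings. PTPA did not pass in 3 of 5 other scalings and BOD1 in 4 of 5. Between the control groups 4 were higher and 4 lower in the Holstein animals, beside 23.9% and 24.4% of all probes, among them CIP2A (2.30, but 0.78 and not passed with normexp) and the methylesterase PPME1 (0.67) on the higher side and PABIR1 (-1.01) and BOD1 (-0.83) on the lower. Against the Holstein controls, the positive animals had 1 higher probe (ANP32A, 0.60) and 2 lower ones, beside 17.5% and 18.7% of all probes. The lower ones were TIPRL (-0.63, and -1.29 to -0.40 over other scalings) and SET (-0.40, not passed with 75th percentile scaling). ANP32A and SET are both inhibitors of PP2A. Against the unknown animals 0 of 14 passed, beside 0.0489% of all probes. Between set B and set A, 0 were at least 2-fold higher and 1 at least 2-fold lower (PABIR1, -1.15), beside 14.5% and 11.3% of all probes. LCMT1, which methylates the catalytic subunit, was at 12.88 ± 0.15 (SD, n = 10) in set B and 13.46 ± 0.23 (n = 11) in set A, and PTPA at 13.32 ± 0.28 and 14.11 ± 0.32.

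Of 16 probes of related phosphatases, 9 passed in the positive animals against the crossbred controls, a share near the 51.7% of all probes, with 3 higher and 6 lower (median -0.21, and 0.10 with cyclic loess on every pair). The calcineurin B gene PPP3R1 was higher by 1.83 (3.56-fold, adjusted p = 7.15e-05), and PPP1CC, a catalytic subunit of phosphatase 1, by 1.10 (2.14-fold). The calcineurin A gene PPP3CA was lower at both probes (-1.52 at A_73_114042 and -1.09 at A_73_114322), as were both probes of PPP6C (-1.15 at A_73_102660 and -0.77 at A_73_106381), the catalytic subunit nearest in the family to PP2A and phosphatase 4, and PPP4R1 (-1.03). PPP5C was higher by 0.69, without passing in 2 of 5 other scalings. Against the Holstein controls 3 were higher and 6 lower, beside 17.5% and 18.7% of all probes, with PPP3R1 at 0.84 (not passed with normexp). PPP3CA was at -0.87 and -1.10 at the same 2 probes in turn, while PPP6C was at -1.01 at the first probe (not passed with 75th percentile scaling) and higher by 0.38 at the other. Between the control groups 3 were higher and 5 lower in the Holstein animals, beside 23.9% and 24.4% of all probes, with PPP3R1 at 0.99 and PPP1CC at 0.89. For PPP6C the first probe was at -0.14 (adjusted p = 0.536) and the other (A_73_106381) at -1.15, so that the probes disagreed there too. Against the unknown animals 0 of 16 passed, beside 0.0489% of all probes. Between set B and set A, 2 were at least 2-fold higher (PPP5C, 2.40, and a probe of PPP3CA, 1.17) and 3 at least 2-fold lower (both probes of PPP6C and the other probe of PPP3CA, at -1.03), beside 14.5% and 11.3% of all probes. The 2 probes of PPP3CA thus disagreed.

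In the Wnt and beta-catenin pathway, 17 of 24 probes passed between the positive animals and the crossbred controls, 4 higher and 13 lower, beside 25.5% and 26.3% of all probes, with a median of -0.38. With cyclic loess on every pair 4 were higher and 10 lower, with a median of -0.02, where 9331 of 15859 probes passed over all. CTNNB1, the gene of beta-catenin, was at 7.56 ± 0.22 (SD, n = 4) against 8.71 ± 0.27 (n = 5), a log2 change of -1.15 (adjusted p = 4.41e-04). The receptor gene FZD7 was lower at probe A_73_117532 (-2.21, adjusted p = 1.41e-05), as was DVL2, a transducer of the signal, at A_73_116423 (-1.21). Each of these genes has another probe, which is not described here. Probe A_73_114554 of DVL3 was well above background on 0 of 4 positive animals and 3 of 5 crossbred controls. This gave that probe a level at least 3.40-fold lower in the normalization used here (adjusted p = 9.10e-05). The bound does not carry over to other scalings, where the fitted log2 change of the probe ran from -3.10 to -0.54. The gene's other probe (A_73_107463) is not described, so these values stand for 1 probe and not for the gene. The kinase gene GSK3A was higher at the probe with the larger change (1.67, but 0.64 and not passed with cyclic loess on every pair) and lower at its other probe. GSK3B was lower (-0.96), but higher by 0.43 with cyclic loess on every pair. In the Holstein against the same crossbred controls, a comparison that is not independent of the first, 2 probes were higher and 14 lower, with a median of -0.42. The shares of all probes were 23.9% and 24.4%. Among the lower ones were the same probes of FZD7 (-2.37), CTNNB1 (-1.36) and DVL2 (-0.88). Between the positive animals and the Holstein controls, 2 of 24 were higher and 4 lower, beside 17.5% and 18.7% of all probes, with a median of -0.0011 and LRP5, a co-receptor, at 1.04 (0.38 and not passed with cyclic loess on every pair). The counts were 6 higher and 2 lower with 75th percentile scaling and 9 and 8 with cyclic loess on every pair (median 0.12). With the latter, 9417 of all probes passed, against 5933 in the normalization used here. Against the unknown animals 0 of 24 passed, beside 0.0489% of all probes. In set B against set A, 5 were at least 2-fold higher and 2 at least 2-fold lower, beside 14.5% and 11.3% of all probes, with CTNNB1 at -1.08.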

How the data were processed

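Single-colour arrays of 43 animals were analysed. Per the file headers, the authors deposited an intensity per spot that Feature Extraction 9.5.1.1 (9.1.3.1 or 9.5.3.1 for the cross-breed controls) had background-subtracted and detrended. The deposited series matrix, intensities normalized by the authors, was put on the log2 scale and used as an alternative. Control spots and outlier-flagged spots were left out. The log2 intensities of all 43 arrays were put through cyclic loess, and the spots of a probe were then averaged. Probes under a log2 signal of 4 on 30 or more arrays were left out, leaving 16360 of 21475. Groups were compared with limma 3.58.1 in R 4.3.3 (Benjamini-Hochberg, adjusted p under 0.05 passed), each fit holding the 2 groups compared; all adjusted p come from limma. The code was tested on simulated data. Per the study, the commercial animals came from several batches, but the batch of each animal was not known here. Otherwise nothing beyond 1 animal per array was known of replication, and the number of arrays limits precision. The 4 genes and the lists were chosen with earlier results of these data known. The named genes are all 4 PP2A genes, up to 6 passing genes of each list with the largest change, and the 5 genes most correlated with each PP2A gene. For GSK3A, PPP3CA, PPP6C, PPP2R5C and DCN both probes are mentioned. Values of marker genes, HOXA9, HOXC6, ZFY and set B against set A were named after they were seen. Array names were matched to RefSeq for 13894 probes, and 1 B subunit probe whose names disagreed was left out of the counts. Some probes described here, such as those of PPP2R2C, TIPRL, GSK3B, ADIPOQ and VWF, were named only by the array's own description. Alternatives covered scaling, background, filters, batches and single arrays.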

Additional observations from a re-analysis of the deposited data

How the results depend on the processing

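Of 300 alternative values for the 4 PP2A genes, 264 kept their direction and their side of the threshold, or moved by less than 1 SD where no test was made; the cause of the other changes was not tested. Cyclic loess on every pair gave medians of all probes of -0.26, -0.28 and -0.18 in the positive animals against the crossbred controls, the Holstein controls and the unknown animals, and 75th percentile scaling gave 0.11, 0.19 and 0.08. For the positive animals against the crossbred controls, cyclic loess on every pair gave PPP2CA -0.12 (0.14 above the median of all probes), PPP2CB 0.78, PPP2R1A 0.32 and PPP2R1B -0.43 (adjusted p = 0.0433); 75th percentile scaling gave PPP2CB 0.49 and PPP2R1A 0.012; normexp gave PPP2CA 0.38 (adjusted p = 0.0967), PPP2R1A 0.018 and PPP2R1B -0.023. The fit of all 43 arrays passed 4909 of its probes against 8461 and gave PPP2CA 0.66 (adjusted p = 0.224), and the scan day as a random block gave it 0.65. Leaving out single arrays gave 0.51 to 0.75 for PPP2CA, 0.17 to 0.47 for PPP2CB and -0.041 to 0.18 for PPP2R1B, the last below 0 without S56. PPP2R1A in the Holstein against the crossbred controls was -0.25 with 75th percentile scaling.

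Between the positive animals and the Holstein controls, cyclic loess on every pair gave PPP2CA -0.39, PPP2CB 0.59 (adjusted p = 0.0208), PPP2R1A 0.70 and PPP2R1B -0.48 (adjusted p = 0.0319) and passed 9417 probes against 5933; normexp gave PPP2R1A 0.44 and 3494 probes, no filter 9884 probes and all 43 arrays 3873. PPP2CB was -0.022 to 0.28 without single arrays, below 0 without S54. Against the unknown animals, 8 probes passed, and this count was 2 with 75th percentile scaling, 38 with quantile normalization, 140 with cyclic loess on every pair, 34 with the authors' series matrix, 1 with normexp, 1560 without the filter, 17 with the filter on signal above background, 1359 with all 43 arrays, 2 with scan day as a random block, 30 without the 5 animals of low spike-in signal, 22 without the 5 of high HOXA9 and 0 on the shared slides (limma; 1873 at an unadjusted p under 0.05; 9 without animal 79). It was 0 to 2 without single positive arrays (limma, 2397 to 2823 at an unadjusted p under 0.05), 0 of them without S54 or without S57. PPP2CA passed there with all 43 arrays (1.17, adjusted p = 0.0318). PPP2CB was 0.012 with slide and 0.031 with scan day as a random block, and 0.087 on the shared slides (0.10 without animal 79). PPP2R1B was -0.29 with cyclic loess on every pair, -0.16 with slide and -0.18 with scan day as a random block, -0.23 on the shared slides (-0.17 without animal 79), -0.033 without the 5 animals of high HOXA9 and -0.076 to 0.14 without single arrays. Between set B and set A, normexp gave PPP2CA 0.79, and cyclic loess on every pair gave PPP2R1A 0.053 and PPP2R1B 0.043. The settings without animal 79 and without these 2 sets of 5 animals were chosen after seeing the data.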
